A study of Mus musculus with 6 samples.

Results

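The 30 genes described here encode ion channels, exchangers and pumps of the heart muscle cell surface, and they were chosen by name from the 49585 rows of the deposited table of heart ribosome-protected fragments. Every one of the 30 was found as a row. They were grouped by the current they carry or regulate, with 5 genes for sodium and other cations, 15 for potassium, 5 for calcium and 5 for pumps and the sodium-calcium exchanger. Fragments, the pieces of mRNA shielded from nuclease by a ribosome, were sequenced as 6 libraries from hearts of male mice, aged 8 or 9 weeks per the labels. The PG (partial gravity) group of 3 was kept at 0.167 g, lunar gravity, on a centrifuge of 15 cm radius turning at 31 rpm. The GC (ground control) group of 3 was held at 1 g, and the labels give its strain as C57BL/6J and its housing as matched to that on the space station. The labels add that the ground controls were 6 age-matched mice per mission, and they give no strain for the PG mice. PG mice were centrifuged in flight, so flight and gravity level cannot be told apart between these groups. The labels do not tie the libraries to separate animals, so each p-value measures the spread between these samples, which may be technical.

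In heart muscle, sodium channels start each beat, L-type calcium channels hold the membrane depolarised and let in the calcium that triggers contraction, and several potassium channels bring the membrane back to rest. Potassium channels differ in when they act: transient outward channels at the start of repolarisation, delayed rectifiers later, inward rectifiers at rest. The sodium pump and the sodium-calcium exchanger restore the ion gradients that these currents use up. Adult mouse ventricle relies heavily on transient outward current and repolarises fast.

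A library held 2212473 to 3196070 exon reads. Of these, 45.5% to 52.5% lay in a pair of genes, Lars2 and Tmem38b, and the 30 genes held 0.191% to 0.245%, or 4272 to 7196 reads. Over all 6 libraries a gene of the set had 82 (Kcne1) to 4839 (Abcc9) exon reads, with a median of 599.5. Intron reads were counted apart. Over the whole table they made up 63.6% to 64.4% of gene reads in PG libraries and 65.6% to 68.7% in GC libraries, which do not overlap. The source of the intron reads was not tested. Levels are given as CPM, exon reads scaled to a common library size, with TMM factors that align the bulk of genes between libraries. All 30 passed the filter on low counts and were tested with edgeR's quasi-likelihood test among 9124 genes. Fold changes are PG over GC, so a positive log2 value means higher in PG, and 0.05 after Benjamini-Hochberg adjustment over the 9124 genes was the threshold. RNA was not measured separately, so a fragment count reflects mRNA amount and translation together, and in a whole heart fewer cells of a type and less RNA per cell cannot be told apart.

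None of the 30 genes passed the threshold, while 0.581% of all tested genes did (53 of 9124). At an unadjusted p under 0.05 there were 5, against 10.4% of all tested genes. The 5 were Kcnj3 and Cacna1c on the higher side (4.82% of all tested genes) and Fxyd1, Scn4b and Atp1b1 on the lower side (5.62%). The PG and GC libraries did not overlap in 6 of the 30, these 5 and Trpm4, where 16.3% of all tested genes had groups that did not overlap (8.06% higher and 8.25% lower in PG). DESeq2 on the same counts called 3, Kcnj3 and Cacna1c higher and Fxyd1 lower, among the 15 to which it gave an adjusted p. Over the 9124 genes entered, DESeq2 called 127. With limma-voom 0 were called and 6 had an unadjusted p under 0.05, against 80 and 953 of all 9124 genes. Of the 30, 17 had a positive log2 fold change and 13 a negative one, and their median was 0.05 against -0.0017 over all tested genes. The median size of the change regardless of sign was 0.22 in the set and 0.24 over all tested genes.

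The counts limit what could be seen. For 9 genes the 95% interval of the fold change lay within 1.5-fold in both directions: Kcnj2, Kcnj11, Abcc9, Kcnh2, Kcnk3, Cacna2d1, Atp1b1, Slc8a1 and Atp2b1. For 25 it lay within 2-fold, and for Scn4b, Trpm4, Kcnj3, Kcne1 and Kcna5 it reached past 2-fold. These intervals are for each gene alone and are not adjusted for the number of genes.

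**Figure D1:**
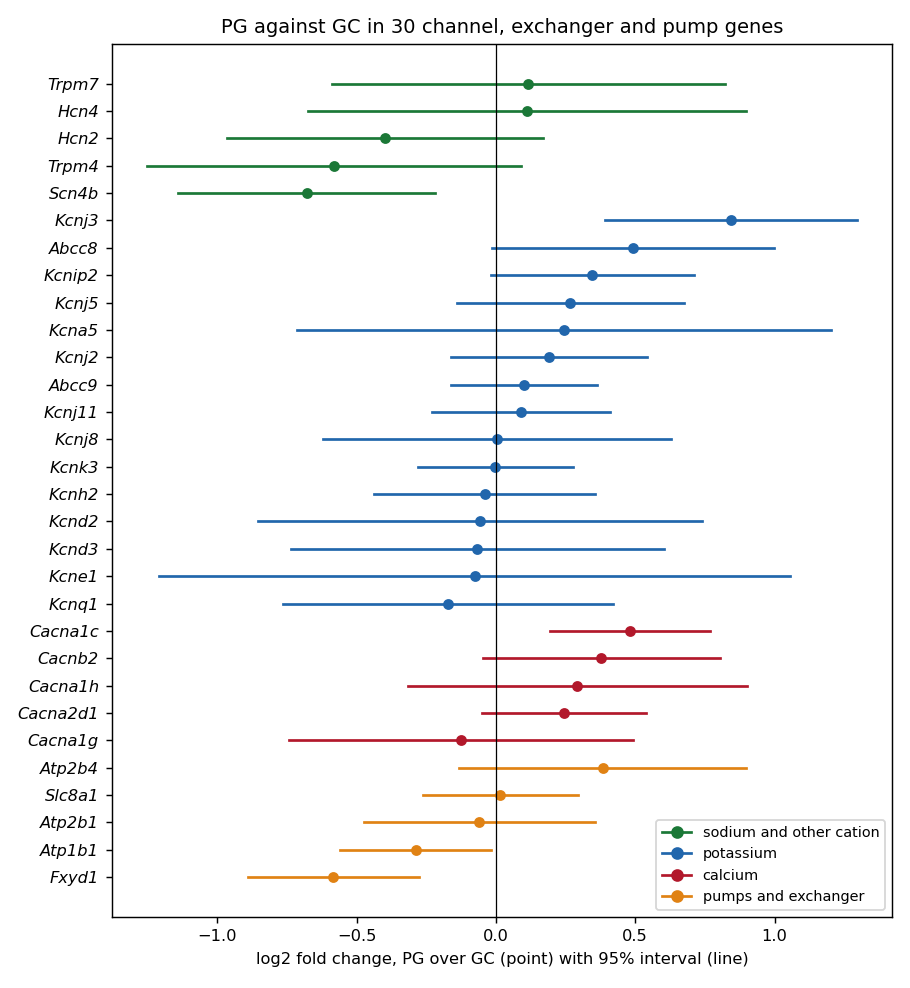
Each row is 1 of the 30 genes, coloured by current; the point is the log2 fold change of PG over GC and the line its 95% interval, not adjusted for multiple tests, from edgeR with 3 libraries per group. The lines of Kcnj3 and Cacna1c lie right of 0 and those of Scn4b, Atp1b1 and Fxyd1 left of it, and none of the 30 passed an adjusted p of 0.05.

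Among the genes of sodium and other cation currents, Scn4b encodes the beta-4 subunit that binds the pore of voltage-gated sodium channels and shapes their gating. Scn4b had 19.3, 28.01 and 37.1 CPM in PG libraries 1, 2 and 3, against 46.2, 39.6 and 47.5 CPM in GC libraries 1, 2 and 3. Every PG value lay below every GC value, though PG replicate 3 came within a few CPM of GC replicate 2. The log2 fold change was -0.68 ± 0.22 (SE), 1.602-fold lower in PG (adjusted p of 0.213, edgeR). It was -0.47 without PG replicate 1 and -0.91 without PG replicate 3, with adjusted p-values of 0.671 and 0.0954. Trpm4, a calcium-activated channel that passes monovalent cations, had 9.32, 11.1 and 9.86 CPM in PG and 11.6, 14.8 and 18.6 CPM in GC. Its groups did not overlap either, on only 84 reads in PG and 118 in GC, and its adjusted p was 0.557 (edgeR).

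The pacemaker channel genes Hcn2 and Hcn4 encode the channels opened by hyperpolarisation that carry the mixed sodium and potassium current of the sinus node. Hcn2 had 19.0, 12.1 and 18.3 CPM in PG against 22.6, 24.8 and 17.7 CPM in GC, which overlap. Its log2 fold change was -0.40 ± 0.27 (SE), with an adjusted p of 0.662 (edgeR). Hcn4 averaged 11.6 ± 5.16 CPM in PG and 10.7 ± 1.01 CPM in GC (SD, n = 3 each), and its PG spread came from a single low library, PG replicate 1 at 5.66 CPM. Trpm7, a channel fused to a kinase that admits magnesium and calcium, averaged 14.7 ± 3.01 CPM in PG and 13.3 ± 6.52 CPM in GC.

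The inward rectifiers hold the resting potential. Kcnj2 encodes Kir2.1, the main pore of the resting current of the ventricle, and had 53.9, 71.9 and 76.5 CPM in PG against 56.8, 61.8 and 58.1 CPM in GC. PG replicate 1 was the lowest of all 6 libraries and PG replicates 2 and 3 the highest, so the groups overlap. The interval of its fold ran from 0.895 to 1.46. Kcnj3 and Kcnj5 encode Kir3.1 and Kir3.4, which join into the acetylcholine-activated channel that slows the heart under vagal drive and is most abundant in the atria.

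Kcnj3 had the largest positive log2 fold change of the 30, with 48.6, 61.1 and 61.5 CPM in PG libraries against 30.8, 20.5 and 42.6 CPM in GC libraries. All PG values were above all GC values, and GC replicate 2 was the lowest. The log2 fold change was 0.84 ± 0.22 (SE), 1.79-fold higher in PG, and its adjusted p of 0.0723 missed the threshold (edgeR). Of its reads 48.7% fitted a single place, the smallest share in the set, and on those unique reads the log2 fold change was 0.81 with an adjusted p of 0.204. Introns held 16.8% of the Kcnj3 gene reads, and on gene reads, which include them, the log2 fold change was 0.66 (adjusted p of 0.234, edgeR). Leaving out GC replicate 3 gave 1.15 with an adjusted p of 0.0175, and leaving out GC replicate 2 gave 0.61 with 0.386. Its partner Kcnj5 had 48.6, 85.3 and 54.5 CPM in PG against 46.7, 59.2 and 51.3 CPM in GC, with PG replicate 2 far above the other libraries and an adjusted p of 0.698.

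Since Kcnj3 marks atrial muscle, atrial markers bear on its values. The other 8 atrial markers summed to 1277 to 1581 CPM in PG and 1363 to 1977 CPM in GC, with all of them above 0. Of the 7 tested, 3 had a positive and 4 a negative log2 fold change, and 1, Dkk3, rose, at 80.4 ± 7.29 CPM in PG against 44.2 ± 2.85 CPM in GC (SD, n = 3 each). The atrial light chain genes Myl7 (-0.66 ± 0.17) and Myl4 (-0.58 ± 0.15) had negative log2 fold changes (± SE). Nppa gave most of the sums, at 899 ± 75.3 CPM in PG and 991 ± 240 CPM in GC (SD, n = 3 each). The part of the atrial markers in the Kcnj3 values was not tested.

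The ATP-sensitive potassium channel opens when cell energy falls and is built from a Kir6 pore and a sulfonylurea receptor. Its genes sit in 2 tight pairs. Abcc9, encoding the receptor SUR2, spans positions 142587862 to 142702315 of chromosome 6, and Kcnj8, encoding Kir6.1, spans 142564837 to 142571614 of the same chromosome, 16247 bases away. On chromosome 7, Abcc8 (SUR1, positions 46104523 to 46180033) and Kcnj11 (Kir6.2, positions 46093953 to 46100764) lie 3758 bases apart. These are the positions in the deposited table, shifted to count from 1, and the submitters' processing notes list GRCm38 and mm10 as builds.

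Abcc9 had 305, 315 and 318 CPM in PG against 258, 284 and 331 CPM in GC, the highest CPM of the potassium channel genes. The PG libraries were close together and lay inside the GC range, and the interval of the fold ran from 0.895 to 1.29. Kcnj11 averaged 88.9 ± 10.1 CPM in PG and 84.1 ± 10.1 CPM in GC, and Kcnj8, which is also strongly expressed in pericytes, averaged 16.9 ± 5.28 and 16.5 ± 3.04 CPM (SD, n = 3 each). Abcc8, in mice the receptor of the atrial channel, had 25.6, 36.6 and 28.2 CPM in PG against 16.4, 20.5 and 26.7 CPM in GC. Only PG replicate 1 fell under the highest GC library, and the log2 fold change of 0.49 ± 0.24 (SE) had an adjusted p of 0.495 (edgeR). Per kilobase of exon, Abcc9 stood at 11.5, 8.31 and 10.9 times Abcc8 in PG and 15.2, 13.4 and 11.97 times in GC, which do not overlap. It stood at 1.56 ± 0.193 times Kcnj11 in PG and 1.55 ± 0.381 times in GC (SD, n = 3 each). Of 14 such ratios between partner genes, 2 did not overlap, this one and Cacna2d1 over Cacna1c, and they were not tested. The latter was separated only by 1.006 in PG replicate 1 against 1.009 in GC replicate 1. Among single tested genes 16.3% did not overlap.

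The transient outward current runs through Kv4.2 (Kcnd2) and Kv4.3 (Kcnd3), whose surface expression in ventricle depends on the accessory protein KChIP2 (Kcnip2). Kcnip2 had 121, 103 and 76.5 CPM in PG against 96.3, 63.5 and 78.9 CPM in GC, so PG replicate 3 lay inside the GC range and the groups overlap. Its log2 fold change was 0.35 ± 0.18 (SE), with an adjusted p of 0.504 (edgeR). The pores were far scarcer: Kcnd2 averaged 12.2 ± 0.806 CPM in PG and 12.5 ± 7.29 CPM in GC, with GC replicate 2 alone at 4.35 CPM. Kcnd3 averaged 13.2 ± 3.22 CPM in PG and 13.7 ± 3.45 CPM in GC (SD, n = 3 each). Per kilobase of exon, Kcnip2 stood at 12.3 ± 3.49 times Kcnd2 in PG and 12.5 ± 8.05 times in GC.

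The delayed rectifiers act later in repolarisation. Kcnh2 encodes the pore of the rapid component, known as ERG, and Kcnq1 and Kcne1 the pore and accessory subunit of the slow component. Kcnh2 had 38.6, 63.3 and 56.4 CPM in PG against 52.5, 47.9 and 61.5 CPM in GC, with a fold interval of 0.739 to 1.28. Kcnq1 averaged 18.5 ± 6.95 CPM in PG and 20.4 ± 3.54 CPM in GC (SD, n = 3 each). Kcne1 had 9, 10 and 21 reads in PG libraries and 9, 12 and 21 in GC libraries, and its fold interval reached from 0.432 to 2.08. Kcna5, the ultrarapid Kv1.5 channel, had 34, 18 and 14 reads in PG and 7, 19 and 26 in GC, and its interval reached from 0.609 to 2.30.

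Kcnk3 encodes TASK-1, a leak channel sensitive to acid, and had the second highest CPM of the potassium channel genes, after Abcc9. Per kilobase of exon it stood above Abcc9, at 48.4 against 36.1 CPM per kb (means over 6 libraries). Kcnk3 had 177, 216 and 183 CPM in PG against 212, 178 and 188 CPM in GC. The 2 groups cover the same range, and the fold interval of 0.825 to 1.21 was among the narrowest of the 30.

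**Figure D2:**
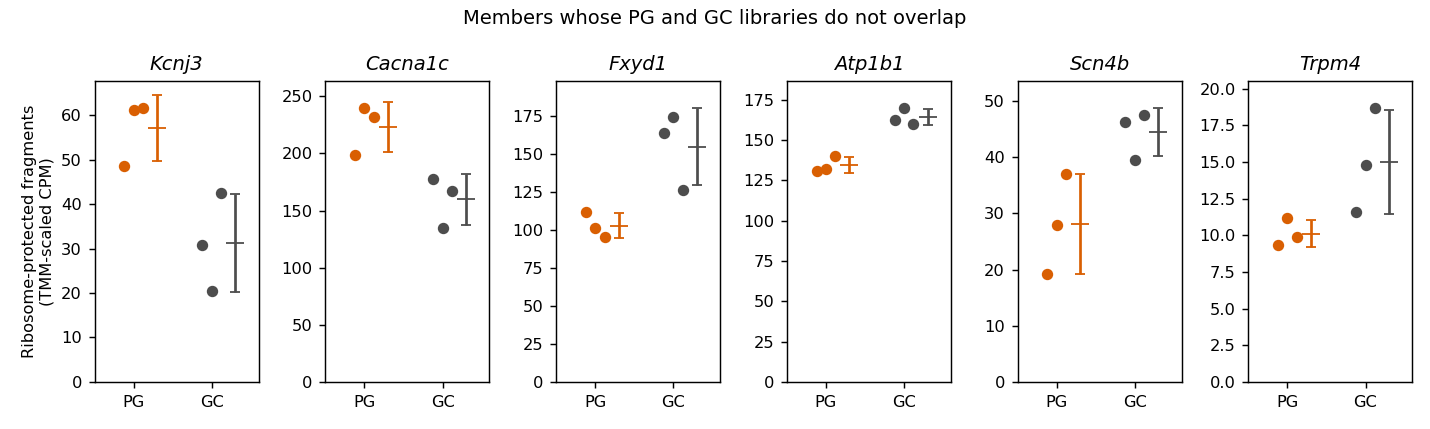
Each panel shows 1 of the 6 genes whose libraries did not overlap between groups, with TMM-scaled CPM on an axis from 0, a point per library, and the mean and SD (n = 3) beside the points, PG left and GC right. Kcnj3 and Cacna1c are higher in all 3 PG libraries and Fxyd1, Atp1b1, Scn4b and Trpm4 lower, with gaps that are narrow for Scn4b, Trpm4 and Kcnj3; none of the 6 passed an adjusted p of 0.05.

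Of the 5 calcium channel genes 4 had positive log2 fold changes and none passed the test. All 5 have over 8 kb of exon, a length at which 66.3% of all tested genes had positive values. Cacna1c encodes the pore of the L-type channel, Cav1.2, and spans positions 118587240 to 119196418 of chromosome 6. It had 199, 239 and 232 CPM in PG libraries against 177, 134 and 167 CPM in GC libraries, with all PG values above all GC values and GC replicate 2 lowest. The log2 fold change was 0.48 ± 0.14 (SE), 1.40-fold higher in PG (adjusted p of 0.129, edgeR). Introns held 31.0% of the reads of this gene, and on gene reads, which include them, it was 0.20 (adjusted p of 0.730). Its own intron reads numbered 558 in PG and 813 in GC, which gave -0.24 on the log2 scale (adjusted p of 0.858).

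Its partners are the alpha-2-delta subunit (Cacna2d1), which helps bring the channel to the surface, and the beta subunit (Cacnb2), which binds inside the cell and regulates opening. Cacna2d1 had 152, 168 and 146 CPM in PG against 136, 110 and 147 CPM in GC, so PG replicate 3 fell just under GC replicate 3. Its fold interval ran from 0.967 to 1.452, with an adjusted p of 0.570 (edgeR). Cacnb2 had 38.3, 49.7 and 47.4 CPM in PG against 27.9, 44.4 and 31.7 CPM in GC, where GC replicate 2 lay inside the PG range, and its adjusted p was 0.544. The T-type channel genes Cacna1g and Cacna1h, pores that open at low voltage, were scarcer. Cacna1g averaged 17.3 ± 4.60 CPM in PG and 19.2 ± 6.47 CPM in GC, and Cacna1h 21.0 ± 8.35 CPM in PG and 17.1 ± 0.896 CPM in GC (SD, n = 3 each).

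Among the pumps, both genes of the sodium pump in the set had lower values in every PG library. Fxyd1 encodes phospholemman, a small membrane protein that restrains the sodium pump until it is phosphorylated, and spans positions 31051678 to 31057199 of chromosome 7. It had 111, 102 and 95.3 CPM in PG libraries against 164, 174 and 126 CPM in GC libraries. All PG values were below all GC values, and GC replicate 3 was the closest. The log2 fold change was -0.58 ± 0.15 (SE), 1.498-fold lower in PG (adjusted p of 0.0674, edgeR), and this p was the smallest of the 30. Every one of its 2003 reads fitted a single place, and it passed in 6 of 19 other settings, unique reads among them (-0.59, adjusted p of 0.0272). Adjusted p-values ran from 0.0150 with DESeq2 to 0.386 without GC replicate 2, and the value was 0.0192 without GC replicate 3.

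Atp1b1 encodes the beta-1 subunit that folds the pump and carries it to the membrane. It had 131, 132 and 140.4 CPM in PG against 162, 170 and 160.4 CPM in GC, and the gap between the groups was wider than the spread within either. The log2 fold change was -0.29 ± 0.13 (SE), with an adjusted p of 0.439 (edgeR), and it passed in 0 of the other settings. Atp1b1 is abundant in kidney too, and 6 kidney markers summed to 0.318 to 7.98 CPM in PG and 23.0 to 35.2 CPM in GC, with none at 0 over all 6 libraries. Kap, the 1 with enough reads to be tested, fell, with 14 reads in PG and 135 in GC (adjusted p of 0.00373, edgeR). Their part in the Atp1b1 and Fxyd1 values was not tested.

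Slc8a1, the sodium-calcium exchanger NCX1 that expels most of the calcium entering with each beat, had 212, 272 and 286 CPM in PG against 266, 231 and 264 CPM in GC. The PG libraries reached both below and above the GC range, and the fold interval was 0.833 to 1.23. The plasma membrane calcium pumps Atp2b1 and Atp2b4, which extrude calcium at a slower rate, averaged 45.3 ± 10.02 and 24.4 ± 3.65 CPM in PG against 46.8 ± 8.55 and 18.7 ± 2.66 CPM in GC (SD, n = 3 each). Atp2b4 had adjusted p 0.633 and Atp2b1 0.951 (edgeR).

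Summed by current, 3 of the 4 sums did not overlap between groups, and no sum was tested. Of all single tested genes 16.3% did not overlap, and no such share was computed for sums of genes. The calcium genes summed to 416, 509 and 462 CPM in PG and 379, 331 and 376 CPM in GC. The pump and exchanger genes summed to 515, 586 and 590.3 CPM in PG and 649.8, 635 and 629 CPM in GC, and the sodium and other cation genes to 69.2, 82.8 and 91.1 CPM in PG and 99.2, 101 and 115 CPM in GC. The potassium genes summed to 974, 1113 and 1029 CPM in PG and 930.1, 890.5 and 1000.02 CPM in GC, which overlap. Leaving out 1 gene changed this for 2 of the sums: without Fxyd1, 21.4% of the pump and exchanger sum, those sums overlapped, and without Scn4b, 39.0% of the cation sum, so did those of the cation genes. Without Cacna1c, which held 46.5% of the calcium sum, the other 4 calcium genes still summed to 217, 269.6 and 230.1 CPM in PG and 201, 196 and 209 CPM in GC.

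**Figure D3:**
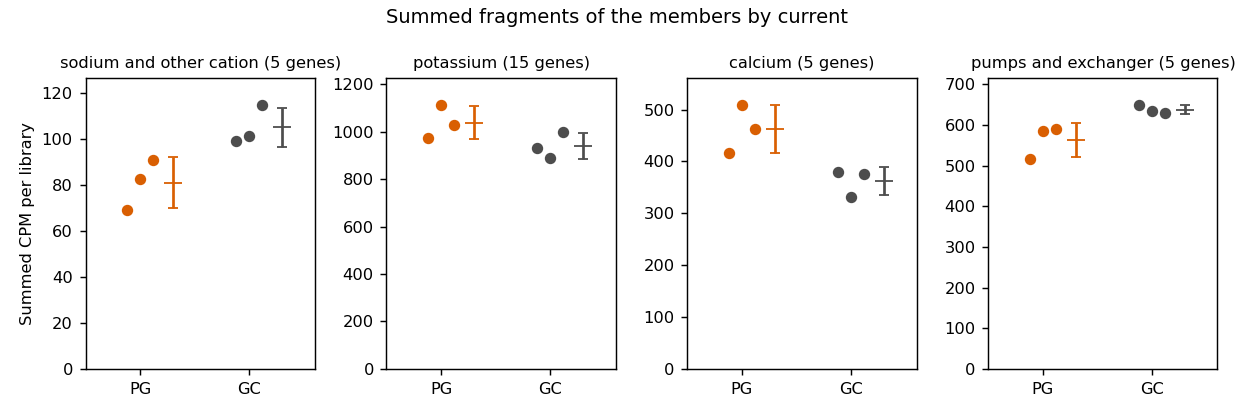
Each panel shows the summed CPM of the genes of 1 current for each library as a point, with the mean and SD (n = 3) beside it and the axis starting at 0, PG left and GC right. The calcium sums are higher in all PG libraries, the cation and pump sums lower, and the potassium sums overlap.

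To compare genes with each other, CPM was divided by the kilobases of exon in the deposited table. On this scale the level ranged 75.0-fold, from 1.16 ± 0.328 CPM per kb for Trpm4 to 87.0 ± 9.5 CPM per kb for Slc8a1 (SD over 6 libraries). The exchanger, Fxyd1 (58.9 ± 15.1), Atp1b1 (48.5 ± 5.46) and Kcnk3 (48.4 ± 4.33) led the order, followed by Abcc9 (36.1 ± 3.17), Kcnip2 (25.9 ± 6.05) and Kcnj11 (23.5 ± 2.55). In 27 of the 29 neighbouring pairs the 6 values overlapped. Gaps without overlap lay below Kcnk3 and below Kcnj11, which set apart the top 4 genes and the 3 after them. The subunits of the L-type channel stood at 11.8 ± 2.45 (Cacna1c), 11.6 ± 1.56 (Cacna2d1) and 3.34 ± 0.734 CPM per kb (Cacnb2). A total of 18 of the 30 lay above the median tested gene, at 3.91 CPM per kb. Exon length includes untranslated sequence, which ribosomes rarely cover, so genes with a short coding part, such as Fxyd1 and Kcne1, are understated on this scale. The range and the order rest on the annotated exon lengths, 2934 bases for Slc8a1 and 10826 for Trpm4. They may differ per coding length, which was not run, so the top place of Slc8a1 holds for this scale only.

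**Figure D4:**
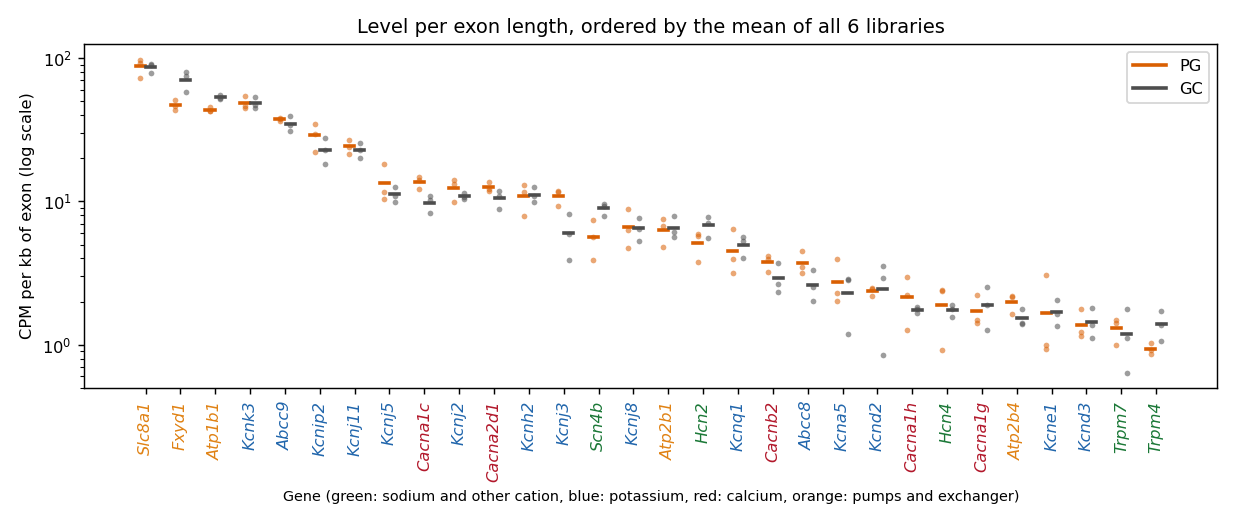
The level of each of the 30 genes in CPM per kilobase of exon on a log axis, ordered by the mean over all 6 libraries, with small points for libraries and bars for the group means, PG left of GC. Slc8a1 stands highest at 87.0 and Trpm4 lowest at 1.16 on the mean of all libraries, and Kcnj3 ranks 12 in PG and 17 in GC.

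Longer genes tended to have more positive fold changes, in the set and across the whole table. Over the 30 genes, log2 fold change and log2 exon length had a Spearman rho of 0.40 (Pearson r of 0.34), and over the 9124 tested genes 0.24 (r of 0.20); the points share the same libraries, and genes are not independent replicates. Across all tested genes the median log2 fold change was -0.18 for exon lengths under 1 kb, -0.12 for 1 to 2 kb, -0.07 for 2 to 4 kb, 0.04 for 4 to 8 kb and 0.14 over 8 kb. Among the members, 8 of the 11 genes over 8 kb had positive values, with a median of 0.24, where 66.3% of all tested genes of that length were positive. Cacna1c has 16287 bases of exon and Fxyd1, the shortest, 2186. The trend showed in single libraries too: the rho of exon length with a library's deviation from the gene mean was 0.123, 0.207 and 0.0735 in PG libraries and -0.168, -0.173 and 0.0101 in GC libraries. With this trend removed in each library, Cacna1c stood at 0.29 (adjusted p of 0.491, edgeR) and Fxyd1 -0.48 (0.159), while Kcnj3 (0.82, 0.0920) and Scn4b (-0.70, 0.231) moved little. The other calcium genes stood at 0.09 (Cacna2d1), 0.22 (Cacnb2), 0.16 (Cacna1h) and -0.27 (Cacna1g), against 0.24, 0.38, 0.29 and -0.12 without the correction. None of the 30 passed in that fit, whose trend correction was added after the pattern was seen.

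**Figure D5:**
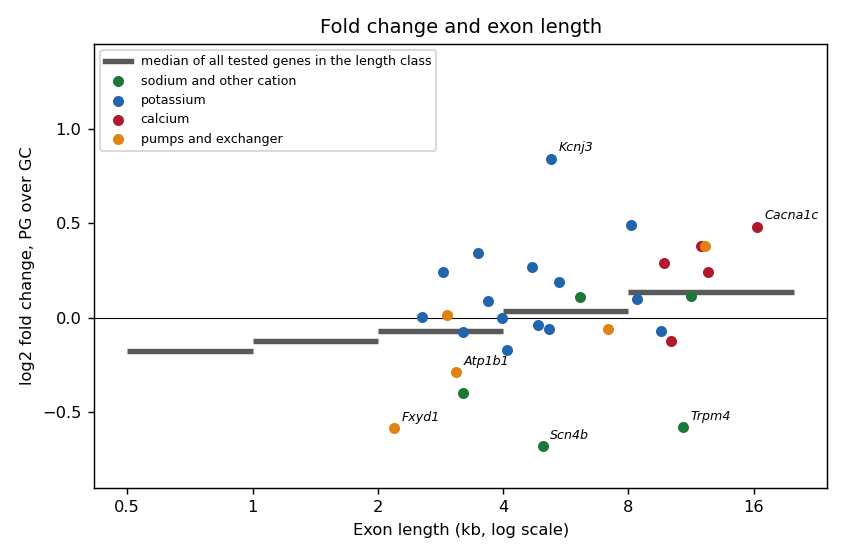
Log2 fold change of PG over GC against exon length in kilobases (log axis); points are the 30 genes coloured by current, and grey bars are the median of all tested genes in 5 length classes, with the first bar drawn from 0.5 kb and the last ending at 20 kb for display. The grey bars climb from -0.18 to 0.14, Cacna1c lies at the long end and Fxyd1 at the short end of the genes.

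Markers of the cells that carry these channels were checked. The 8 heart muscle markers were Myl2, Myl3, Myh6, Tnni3, Tnnt2, Actc1, Ryr2 and Mybpc3, most of which are not confined to the ventricle. They were abundant in every library, which fits the heart label, and summed to 36245 to 42964 CPM in PG and 45101 to 51760 CPM in GC. The sums did not overlap, and all 8 genes had negative log2 fold changes, with a median of -0.14. Actc1, cardiac actin, fell, at 6939 ± 1422 CPM in PG against 11784 ± 1155 CPM in GC (SD, n = 3 each), and the other 7 did not pass. The part of these markers in the values above was not tested. The 9 pericyte and smooth muscle markers, which share cells with Kcnj8 and Abcc9, summed to 610.0 to 653 CPM in PG and 577 to 628 CPM in GC. Of the 8 tested, 4 had a positive and 4 a negative log2 fold change. Acta2, smooth muscle actin, was the 1 that passed, and it was lower in PG (-0.64). Rgs5 of the same list was higher, at 335 ± 36.8 CPM in PG against 249 ± 23.4 CPM in GC (SD, n = 3 each). It did not pass (adjusted p of 0.162, edgeR), and the part of this list in the Kcnj8 and Abcc9 values was not tested. Conduction and pacemaker markers were scarce, with 9 genes summing to 59.9 to 73.7 CPM in PG and 44.4 to 58.8 CPM in GC, which narrowly do not overlap. Smoc2 gave most of these sums. Of the 3 genes tested, 2 had a positive and 1 a negative log2 fold change, and 0 passed. Isl1, a defining gene of the sinus node, had 0 reads in all 6 libraries. What this list adds to the values above was not tested. The 6 fibroblast markers summed to 540.3 to 552 CPM in PG and 569.6 to 638 CPM in GC, which do not overlap; 4 had negative log2 fold changes, the median was -0.25, and the smallest adjusted p was 0.0693, for Col3a1 (edgeR). The 6 endothelial markers summed to 1368 to 1530.0 CPM in PG and 1347 to 1565 CPM in GC, which overlap, and the smallest adjusted p was 0.119, for Fabp4 (edgeR). The part of either list in the values above was not tested. The 7 neuron and Schwann cell markers summed to at most 6.10 CPM in PG and 10.9 CPM in GC, with Th and Prph at 0.

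Other genes of cardiac excitability were set beside them. Of 91 listed (further sodium, potassium, calcium and chloride channels, pump and exchanger genes and the scaffolds that anchor them), 43 had enough reads to be tested and 0 passed in edgeR, while 5 had an unadjusted p under 0.05 (2 higher, 3 lower) and DESeq2 called 1. Over all 9124 tested genes, 53 passed in edgeR, 953 had an unadjusted p under 0.05 there, and DESeq2 called 127. The median log2 fold change of the 43 was 0.07. Akap9, a scaffold that ties a kinase to the slow delayed rectifier, had 36.3, 36.9 and 34.8 CPM in PG against 19.7, 16.97 and 23.0 CPM in GC, and its log2 fold change was 0.84 ± 0.22 (SE, adjusted p of 0.0778). Popdc2, a membrane protein that binds cyclic AMP and is needed for normal pacemaking in mice, averaged 277.7 ± 1.53 CPM in PG and 355 ± 19.95 CPM in GC (SD, n = 3 each). Its adjusted p was 0.242 in edgeR and 0.0402 in DESeq2.

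The authors' deposited table, which holds their own test of the same libraries, gives none of the 30 genes a false discovery rate under 0.05, against 0.0625% of its rows. The smallest in the authors' deposited table is 0.599, for Fxyd1 with a signed fold of -1.49, where the minus sign means lower in PG. Unadjusted p-values under 0.05 in the authors' deposited table fall on 5 of the 30, Fxyd1, Cacna1c, Scn4b, Kcnj3 and Atp1b1.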

How the data were processed

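Per the labels' protocols, heart extracts were cleared of nuclei, debris and mitochondria, treated with RNase I, and spun through 50% sucrose to collect monosomes, whose fragments of 25 to 35 nt were sequenced. The authors deposited whole-number counts per gene (exon, gene and intron reads, total and unique, and an expression value), along with p-values and a signed fold change from a test named EDGE, given in the file as a score; these are per the file headers. For the aligner, counter and strand setting, the sources used here name none. A further 60 per-library value columns were not used.

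Total exon reads were tested over the whole table in R 4.3.3 by edgeR 4.0.16 (a filterByExpr minimum of 10 counts, TMM, glmQLFit, glmQLFTest, group as the only term). Standard errors came from the F statistic, and the 95% intervals use the fit's degrees of freedom. Alternatives were other read classes, scalings, filters, DESeq2 1.42.0, limma-voom (limma 3.58.1), a replicate block, each library left out and, added after seeing the data, a correction for exon length (loess, span 0.5). The members and lists were chosen with earlier results of these data known. Full values are given for members with an unadjusted p under 0.05 and the 2 with the highest level per kilobase in each current group, and for the 3 other excitability genes with the smallest p, of which 1 is not reported here; further members were added after their values were seen. Level per coding length was not run.

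On counts simulated for PG against GC (200 genes altered, 5 simulations, about 8849 genes tested), the test called 15.0% of genes altered 1.5-fold, 49.0% at 2-fold and 91.2% at 4-fold, and 4.17% of calls were false. The biological coefficient of variation was 19.5%. A chi-square test of counts between replicate libraries gave 4.16 to 24.2 per degree of freedom, so every library was kept as its own replicate. Intervals do not cover duplicated PCR reads.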

Additional observations from a re-analysis of the deposited data

How the results depend on the processing

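The count of called members was 0 in the main test and ranged from 0 to 3 elsewhere: 1 (Fxyd1, lower) on unique exon reads, on the authors' expression values and with a minimum count of 30, 3 with DESeq2 and with no filter (Kcnj3 and Cacna1c higher, Fxyd1 lower), and 0 to 2 with a library left out, 2 (Kcnj3 and Fxyd1) without GC replicate 3. Other excitability genes gave 1 call each on gene reads (Ank2), in DESeq2 (Popdc2) and with no filter (Akap9). Over all genes 53 calls became 90 on unique reads, 88 on expression values, 127 with DESeq2, 80 with limma-voom, 181 with no filter and 19 to 102 with a library left out (19 when GC replicate 2 was dropped, 25 and 26 for PG replicates 1 and 2, 102 for GC replicate 3). Library size alone gave 25 higher and 16 lower, where TMM gave 23 higher and 30 lower. Same-numbered libraries did not deviate together (r of -0.032 to -0.0083), so no pairing by replicate number was seen. A near-zero r cannot exclude that they share a batch. With the replicate block 22 genes and 0 members were called. The members' median log2 fold change was 0.05 in the main fit and -0.01 to 0.14 with a library left out. It was negative without PG replicate 2 (-0.01) and without PG replicate 3 (-0.0027). The SD of this median over the 3 PG libraries was 0.18. Every setting lay within that SD of the main value, but the SD exceeds the value itself, so no conclusion is drawn from this.

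Log2 fold changes of members changed sign in 53 of 552 other values, in 17 members that had main values of at most 0.29 in size. Outside the leave-one-out fits these were, for unique reads, Kcnj8 (-0.0015) and Kcnk3 (0.0043); for expression values, Kcnj8 (-0.0025) and Kcnk3 (0.0038); for gene reads, Kcnj11 (-0.0068), Kcnd3 (0.0112), Kcnk3 (0.0252), Slc8a1 (-0.0882) and Atp2b1 (0.0195); for library size alone, Kcnh2 (0.0122), Kcnd2 (0.0002) and Kcnk3 (0.0631); for limma-voom, Hcn4 (-0.0386), Kcnj8 (-0.0789), Kcnd2 (0.11) and Kcnk3 (0.0018); for the length correction, Trpm7 (-0.0170), Abcc9 (-0.0035) and Kcnk3 (0.0158); for the upper quartile, no filter and a minimum count of 30, Kcnk3 (0.0090, 0.0086 and 0.0039); and for the block, Kcnd2 (0.10). With a library left out, the ranges that crossed 0 were those of Trpm7 (-0.16 to 0.57), Hcn4 (-0.11 to 0.45), Kcnj5 (-0.0296 to 0.42), Kcnj8 (-0.24 to 0.20), Kcnq1 (-0.48 to 0.0308), Kcne1 (-0.80 to 0.22), Kcnh2 (-0.20 to 0.14), Kcnd2 (-0.45 to 0.36), Kcnd3 (-0.26 to 0.13), Kcna5 (-0.12 to 0.44), Kcnk3 (-0.0969 to 0.0715), Cacna1g (-0.38 to 0.14), Cacna1h (-0.0364 to 0.57), Slc8a1 (-0.0666 to 0.13) and Atp2b1 (-0.21 to 0.11). The cause of these sign changes was not tested. Level per coding length was not run. With 82 to 4839 reads a gene, depth limits the scarce channels most.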

Other observations

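Intron reads were also compared between PG and GC on their own. Of the 30 genes, 11 had enough intron reads to be tested on them alone and 0 passed in edgeR, with 0 at an unadjusted p under 0.05, among 1177 genes of which 31 passed (2.63%). The smallest adjusted p was 0.374, for Cacna2d1, with 27 intron reads in PG and 68 in GC. Intron reads made up 46.0% of the gene reads of Kcnd2, 38.8% of those of Kcnd3 and 31.3% of those of Kcnq1, whereas Scn4b and Kcna5 had no intron reads.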
